A study of Saccharomyces cerevisiae with 19 samples.

Results

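Sir3 occupancy of the budding yeast genome was compared between 2 arrays of a strain with SIR3 under the ADH promoter (pADH-SIR3, strain yAT2627) and 2 arrays of a strain labelled WT (yAT191). These are 4 of the 19 arrays of a ChIP-chip series in which SIR3 was also driven by other promoters. The arrays were chosen by their labels alone. The question of the comparison is where Sir3 sits when SIR3 is expressed from a foreign promoter, which the labels call overexpression.

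Sir3 is a chromatin protein of the SIR complex, which holds Sir2, Sir3 and Sir4. In wild-type cells the complex is recruited at telomeres, by the telomere binding protein Rap1 among others, and at the silencers of the mating-type cassettes HML and HMR. Sir2 deacetylates histone tails, Sir3 and Sir4 bind the deacetylated nucleosomes, and repetition of this cycle lets the complex spread along the chromosome and repress the genes it covers. The amount of Sir3 is known to limit how far silent chromatin reaches from a telomere.

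Both strains grew exponentially in YPD, a rich glucose medium, at 30 °C and were fixed with formaldehyde. Chromatin was precipitated with a polyclonal antibody against Sir3. The genotype of yAT191 is given as ade2-1::ADE2, with adh4::URA3-4xUASG-(C1-3A)n at the left end of chromosome 7, a PPR1 deletion marked with HIS3, and rap1::GFP-RAP1(LEU2). That of yAT2627 shares ade2-1::ADE2. It has HML deleted with the marker HPH, rap1::RAP1-GFP(LEU2) and sir3::pADH-SIR3(NAT). The groups therefore differ in the tag construct at RAP1, in HML, in ADH4 and in PPR1 as well as in the SIR3 promoter, and every array came from cells with tagged Rap1. For reference, values are set beside those of pTEF-SIR3 (yAT2629, 2 arrays, with the same other alleles as yAT2627) and pGPD-SIR3 (yAT1254, 2 arrays, with the other alleles of WT), which carry the TEF and GPD promoters. The labels do not say that replicates were separate cultures, so all p-values measure only the spread between arrays, which may be technical. The level of SIR3 RNA or protein in these strains was not analysed here.

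The signal of a probe is the log2 ratio of precipitated over whole cell extract DNA minus the median of its array, so 0 is the typical chromosomal probe and 1 is a ratio 2 times as high. It is a relative measure on each array, not an amount of Sir3. Between 40247 and 40888 of 41480 chromosomal probes had a ratio on the 4 arrays. The 2 groups did not come on one scale. The median deposited ratio was 0.0981 and 0.0292 on the WT arrays against 0.942 and 0.938 on the pADH-SIR3 arrays, the scaled median absolute deviation (MAD) of probes over 50 kb from every end was 0.365 and 0.391 against 0.283 and 0.292, and the highest signal was 8.16 and 8.67 against 6.65 and 6.20. Replicates correlated across 36515 probes at r = 0.743 in WT and r = 0.927 in pADH-SIR3, and across the probes within 50 kb of an end at r = 0.926 and r = 0.983. These correlations are across probes of one array pair, and probes are not independent replicates. The later deposit held pADH-SIR3 replicate 2, and the first one the other 3 arrays. No slide held both groups. The part of these differences between arrays in the results was not tested.

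The labelled changes at ADH4 and HML were visible on the arrays, and the probes used could not decide on the PPR1 deletion. Of 49 probes from the left end of chromosome 7 to ADH4, 42 had no ratio on either WT array, against 21 and 20 on the pADH-SIR3 arrays. The genotype given for yAT2627 names no change at this end, and why its probes had no ratio was not tested. On the array of a further pGPD-SIR3 strain, yAT2476, 0 of the 49 were missing. Between VBA3 and CHA1, the interval that holds HML, all 9 probes were measured in WT at a mean of 7.18 and 7.38. On each pADH-SIR3 array 4 of these 9 probes had no ratio, and the rest averaged 2.11 and 1.76. In PPR1, which the label of yAT191 gives as deleted, all 9 probes used had a ratio on every array, with a mean of 0.01 and −0.06 in WT and −0.06 and −0.09 in pADH-SIR3. These 9 probes do not show the allele but cannot decide on it, and WT below stands for the arrays so labelled. The left ends of chromosomes 3 and 7 are kept apart, and "unaltered ends" below are the other 30. The SIR3 gene itself had a mean signal of 0.41 and 0.21 in WT and 0.97 and 0.87 in pADH-SIR3. Its difference of 0.61 (SE 0.16) did not pass the test (limma adjusted p = 0.118). SIR2 differed by −0.01 (adjusted p = 0.974) and RAP1 by −0.03 (adjusted p = 0.925), with signs that turned under some settings.

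Under the ADH promoter Sir3 signal rose in blocks of 2 to 16 kb within about 30 kb of chromosome ends, and the chromosome interior moved little. Of 4214 genes tested, 34 were higher in pADH-SIR3, which is 0.807% of the genes, and 5 were lower, which is 0.119%, by limma across all 19 arrays at an adjusted p of 0.05. Of the 374 genes within 50 kb of an unaltered end, 18 (4.81%) were higher, by 0.83 to 4.06 on the log2 scale with a median of 3.13. Of the 3810 genes over 50 kb from every end, 16 (0.420%) were higher, by 0.37 to 1.36 with a median of 0.60. The median difference over all genes was 0.01. All 34 higher genes had both pADH-SIR3 arrays above both WT arrays, a separation seen in 848 of all genes tested (20.1%). The number of calls depended on single arrays of both groups. It changed most without WT replicate 1 and fell without either pADH-SIR3 replicate, while the number of higher genes hardly changed without WT replicate 2.

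The same model on 1-kb bins, which also takes in intergenic probes, showed where the blocks lay. Of 11002 bins, 139 (1.26%) were higher and 44 (0.400%) lower in pADH-SIR3. Without WT replicate 1 the counts were 443 and 331, and without pADH-SIR3 replicate 1 they were 60 and 14. Of the 1114 bins within 50 kb of an unaltered end, 70 (6.28%) were higher and 4 lower, although their median difference was 0.00. Adjacent higher bins formed 16 runs of 2 bins or more. Of these, 12 lay within 50 kb of an end, at 11 of the 30 unaltered ends, and they began 2 to 30 kb from the end. The 10 ends with higher genes had WT signals of −0.20 to 2.21 in those 18 genes (median of the group means 1.31) and pADH-SIR3 signals of 0.63 to 5.21 (median 4.54).

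The right end of chromosome 3 carries HMR about 22 kb from the end, and the 6 measured genes from GIT1 to RDS1, between HMR and the telomere, all rose. Their group means were 1.00 to 1.75 in WT and 4.77 to 5.21 in pADH-SIR3. In the order from HMR outward these are GIT1, a glycerophosphoinositol transporter, EMA35, YCR101C, YCR102C, a protein similar to quinone oxidoreductases, ADH7, an NADP-dependent alcohol dehydrogenase, and RDS1, a zinc cluster transcription factor. YCR101C (2 probes, positions 302568 to 302899 on chromosome 3, as the files give them) had the largest rise of all genes tested. It read 1.84 and 0.46 in WT and 5.86 and 4.56 in pADH-SIR3, a difference of 4.06 (SE 0.50, adjusted p = 0.00121). YCR102C (positions 304578 to 304854) read 1.64 and 0.86 in WT and 5.69 and 4.47 in pADH-SIR3, a difference of 3.82 (SE 0.43, adjusted p = 0.000955). EMA35 (positions 301477 to 302089) read 1.56 and 0.45 in WT and 5.35 and 4.18 in pADH-SIR3, a difference of 3.77 (SE 0.53, adjusted p = 0.0026). In each of the 3 genes the lower pADH-SIR3 array stood far above the higher WT array. GIT1 differed by 3.44, ADH7 by 3.45 and RDS1 by 3.39. With the 4 arrays of both groups only, YCR101C, ADH7 and RDS1 lost their calls, and YCR102C, EMA35 and GIT1 kept theirs. On this end pADH-SIR3 replicate 1 exceeded replicate 2 by 1.03 to 1.31 in each of the 6 genes, while in the other 12 higher genes near ends the replicates differed by −0.26 to 0.86. AAD3, an aryl-alcohol dehydrogenase-like gene next to the telomere, read 2.89 and 2.99 in WT and 5.29 and 4.32 in pADH-SIR3, and its difference of 1.87 missed the threshold (adjusted p = 0.0627).

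In bins, the higher signal on this arm filled 2 runs, from 2 to 8 kb and from 11 to 20 kb from the end, which together take up most of the interval from the telomere to HMR. In the longer run the mean went from 1.64 to 5.05, and in the shorter one from 1.81 to 5.01. On the pADH-SIR3 arrays the signal was nearly level across the whole interval, where WT had a peak at HMR and a lower stretch between HMR and the telomere. On the centromere side of HMR the profiles met again within a few kb. OCA4, 27.6 kb from the end, read 1.36 and 1.03 in WT and 1.63 and 1.40 in pADH-SIR3 (adjusted p = 0.53), and CDC50, the next measured gene, read 1.03 and 1.41 against 0.78 and 0.90.

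**Figure D1:**
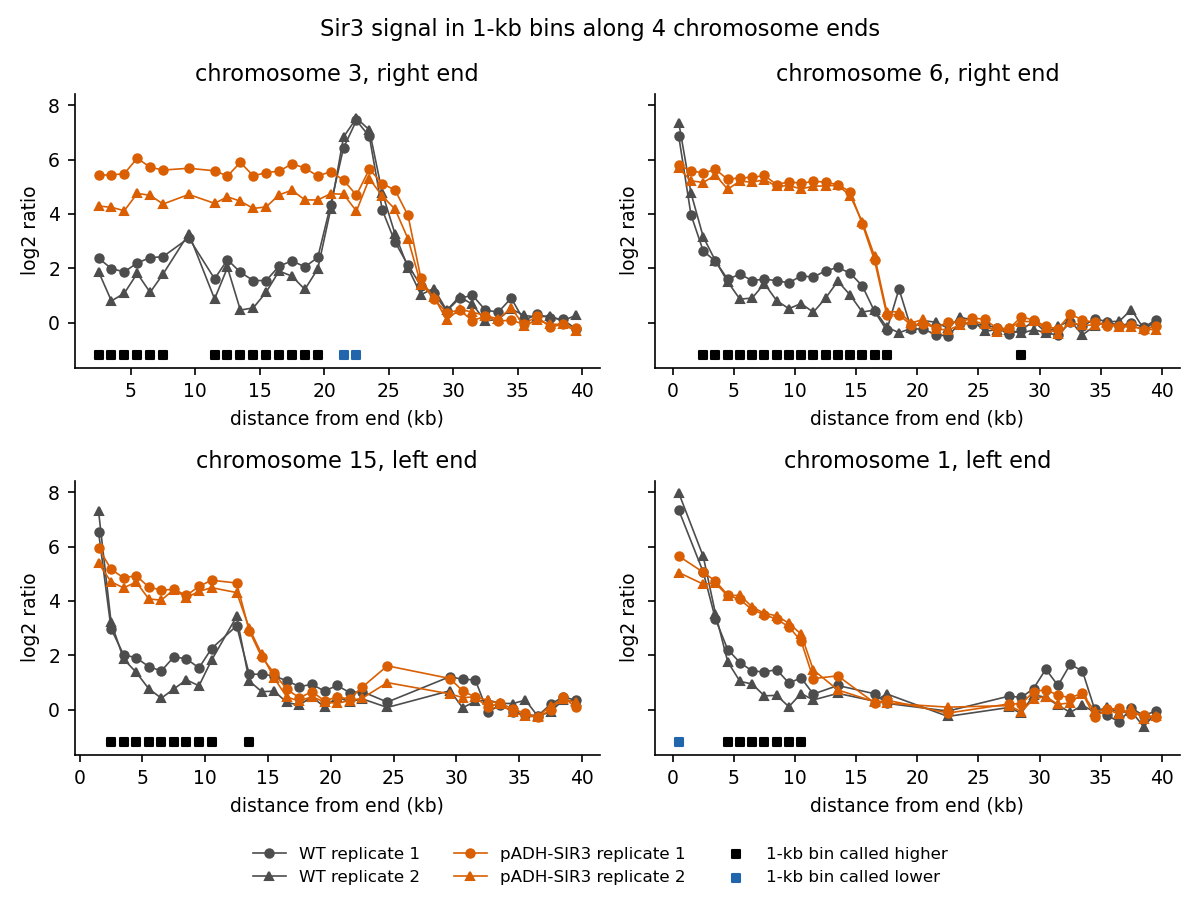
Mean log2 ratio of Sir3 over whole cell extract in 1-kb bins (y axis) against distance from the chromosome end in kb (x axis), for 4 ends and each of the 4 arrays. Squares under the curves mark bins past the adjusted p threshold; on chromosome 6 right the pADH-SIR3 arrays stay near 5 to about 15 kb and fall below 0.5 at 17 kb, and on chromosome 1 left they decline along the block.

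The longest block lay on the right end of chromosome 6. A run of 16 bins, 2 to 18 kb from the end, went from a mean of 1.31 in WT to 4.59 in pADH-SIR3. All 3 genes measured in it rose. IRC7, a beta-lyase gene (positions 264601 to 265136), read 1.95 and 1.46 in WT and 5.26 and 5.08 in pADH-SIR3, a difference of 3.46 (SE 0.47, adjusted p = 0.0026). YFR054C (positions 258982 to 259312) read 1.71 and 0.66 in WT and 5.06 and 4.86 in pADH-SIR3, a difference of 3.77 (SE 0.52, adjusted p = 0.0026). HXK1, which encodes hexokinase isoenzyme 1 (positions 253682 to 254711), read 1.14 and 0.40 in WT and 3.35 and 3.46 in pADH-SIR3, a difference of 2.64 (SE 0.25, adjusted p = 0.000153). In all 3 genes the replicates of pADH-SIR3 lay closer to each other than those of WT.

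The inner border of this block was steep. From 14 to 18 kb the 4 bins read 4.82, 3.63, 2.30 and 0.30 on pADH-SIR3 replicate 1 and 4.68, 3.71, 2.45 and 0.41 on replicate 2. WT replicate 1 read 1.82, 1.36, 0.42 and −0.28 in the same bins, and WT replicate 2 read 1.02, 0.39, 0.47 and −0.16. The pADH-SIR3 signal thus ended within HXK1 and the interval beside it, on both arrays in the same bins. RET2, the next measured gene at 18.9 kb, read 0.24 and 0.30 in pADH-SIR3 and 0.88 and −0.14 in WT (adjusted p = 0.90). At the outermost measured gene of this end, YFR057W, the single probe read 6.61 and 7.26 in WT and 6.26 and 6.08 in pADH-SIR3. One probe is too few for the test of genes.

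The left ends of chromosomes 15 and 1 carried the next longest blocks away from HMR. On chromosome 15 left a run of 9 bins from 2 to 11 kb went from 1.65 to 4.51. BDS1, a sulfatase gene (positions 6301 to 7976), read 1.80 and 0.67 in WT and 4.42 and 4.30 in pADH-SIR3, a difference of 3.12 (SE 0.37, adjusted p = 0.00107). YOL162W (positions 10208 to 10512) read 2.08 and 1.47 in WT and 4.74 and 4.40 in pADH-SIR3, a difference of 2.80 (SE 0.49, adjusted p = 0.0134). The replicates of each group stayed apart in both genes. Beyond the block, ENB1 at 20.3 kb, which encodes an enterobactin transporter, read 0.46 and 0.38 in pADH-SIR3.

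On chromosome 1 left a run of 7 bins from 4 to 11 kb went from 1.13 to 3.53. SEO1, a permease gene (positions 7322 to 8903), read 1.45 and 0.53 in WT and 3.40 and 3.50 in pADH-SIR3, a difference of 2.46 (SE 0.39, adjusted p = 0.00726). The shape of this block differed from that on chromosome 6 right. The signal declined along the end, from 5.65 and 5.04 in the outermost bin through 4.22 and 4.18 at 4 kb to 2.52 and 2.78 in the last bin of the run.

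Shorter blocks were called on other ends. On chromosome 15 right 4 bins from 16 to 21 kb went from 1.26 to 3.65. They hold YOR389W (positions 1074322 to 1075619), which read 1.89 and 0.86 in WT and 4.37 and 4.64 in pADH-SIR3, a difference of 3.13 (SE 0.39, adjusted p = 0.00124). On chromosome 12 right 3 bins from 17 to 20 kb went from 1.11 to 3.16. YLR460C there, similar to quinone oxidoreductases (positions 1059906 to 1060268), read 1.65 and 1.50 in WT and 4.80 and 4.11 in pADH-SIR3, a difference of 2.88 (SE 0.40, adjusted p = 0.0026). On both ends every pADH-SIR3 array was more than 2 log2 units above both WT arrays in the named gene.

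On chromosome 4 right 3 bins from 11 to 14 kb went from 1.47 to 3.49, with YDR541C higher by 2.10. On chromosome 5 right 3 bins from 10 to 13 kb went from 1.28 to 3.48. On chromosome 9 right 2 bins from 2 to 4 kb went from 1.44 to 3.76. They hold YIR042C (positions 435487 to 435893), which read 1.67 and 1.37 in WT and 3.76 and 3.94 in pADH-SIR3, a difference of 2.33 (SE 0.45, adjusted p = 0.0285). The last 2 runs near ends were on chromosome 16 left from 17 to 20 kb, from 0.58 to 2.15, and on chromosome 14 right from 30 to 32 kb, from 0.39 to 1.69. YNR065C in the latter was higher by 1.21 (adjusted p = 0.0346).

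BMH1, which encodes a 14-3-3 protein, was the one higher gene within 50 kb of an end that lay outside the runs, 30.4 kb from the right end of chromosome 5. It differed by 0.83 (SE 0.11, adjusted p = 0.00143), from a WT mean of −0.20 to a pADH-SIR3 mean of 0.63.

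**Figure D2:**
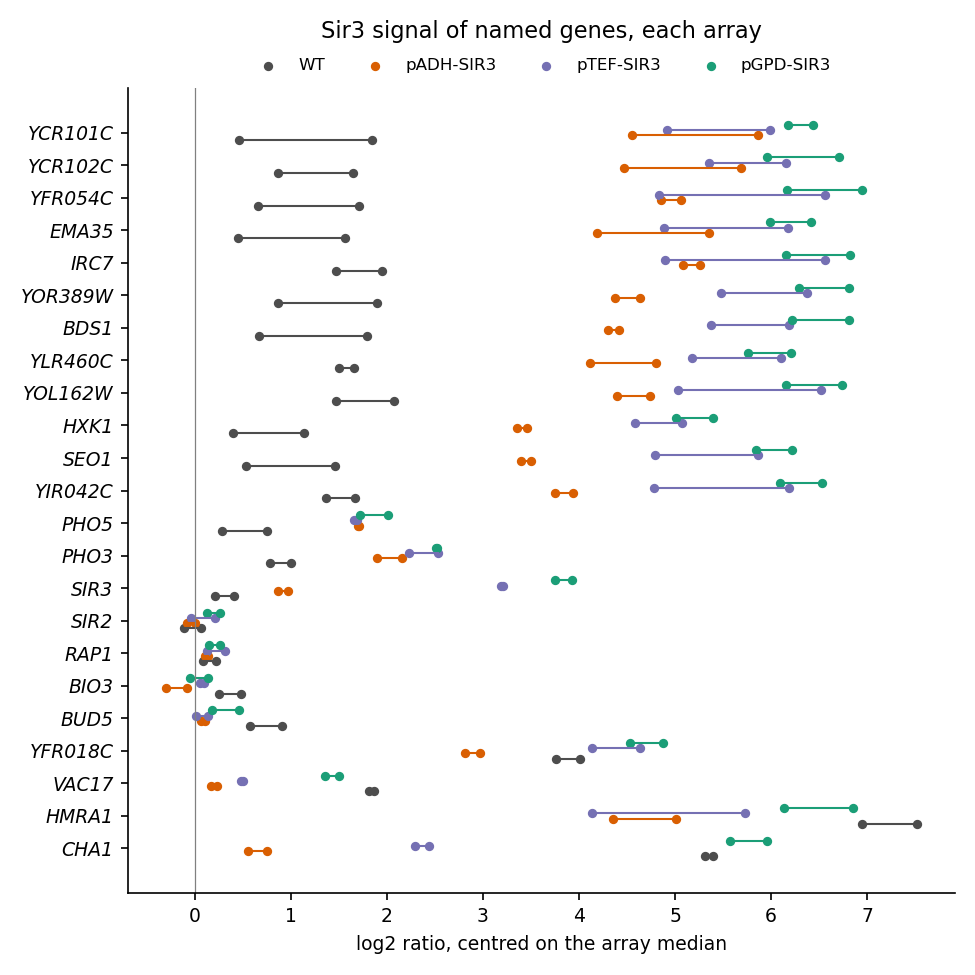
Log2 ratio of named genes (x axis, centred on the array median), 1 point per array, with a line joining the 2 arrays of a group. In the 12 genes at the top both pADH-SIR3 points lie right of both WT points; CHA1, HMRA1, VAC17 and YFR018C lie left of WT.

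Averaged over the bins of unaltered ends by distance, pADH-SIR3 was above WT from 2 to 20 kb and close to it at 20 to 30 kb. The ends that had measured bins differed between distances: 9 ends at 2 to 5 kb, 19 at 5 to 10 kb, 20 at 10 to 15 kb, 27 at 15 to 20 kb and 29 at 20 to 30 kb, so these means do not follow the same ends inward. In bins at 2 to 5 kb the mean signal was 2.59 and 2.44 in WT and 4.31 and 3.98 in pADH-SIR3, with 12 of 21 bins higher. At 5 to 10 kb it was 2.21 and 2.06 against 3.08 and 2.76, with 18 of 64 bins higher. At 10 to 15 kb it was 1.07 and 0.84 against 1.71 and 1.50, with 18 of 80 bins higher, and at 15 to 20 kb 0.67 and 0.47 against 1.04 and 0.89, with 16 of 113. In each of these classes both pADH-SIR3 arrays were above both WT arrays. At 20 to 30 kb the means were 0.36 and 0.28 in WT and 0.38 and 0.33 in pADH-SIR3, with 2 of 262 bins higher and 2 lower. The median difference of the bins was 2.21 at 2 to 5 kb and 0.09 at 5 to 10 kb, so beyond 5 kb the means were raised by a minority of bins. In the outermost 2 kb both pADH-SIR3 arrays were below both WT arrays. The means were 5.50 and 6.17 in WT and 5.31 and 5.00 in pADH-SIR3 over 8 bins at 5 ends, with 1 bin called lower and 0 higher. Between 1 and 2 kb alone the arrays overlapped, at 4.80 and 5.33 in WT and 5.37 and 5.06 in pADH-SIR3.

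As a profile, the mean signal stayed below 1 from 14 kb inward on both WT arrays and from 18 and 17 kb on the pADH-SIR3 arrays. It first fell below 1 at 11 and 10 kb in WT and rose above it again, to 1.22 and 1.04, in the bin at 13 to 14 kb. In the means of pTEF-SIR3 and pGPD-SIR3 it stayed below 1 from 26 kb inward. At 10 to 15 kb pTEF-SIR3 averaged 3.67 and pGPD-SIR3 3.98, above both pADH-SIR3 arrays. The pADH-SIR3 profile thus lay between WT and the other promoter strains from 2 to 20 kb.

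**Figure D3:**
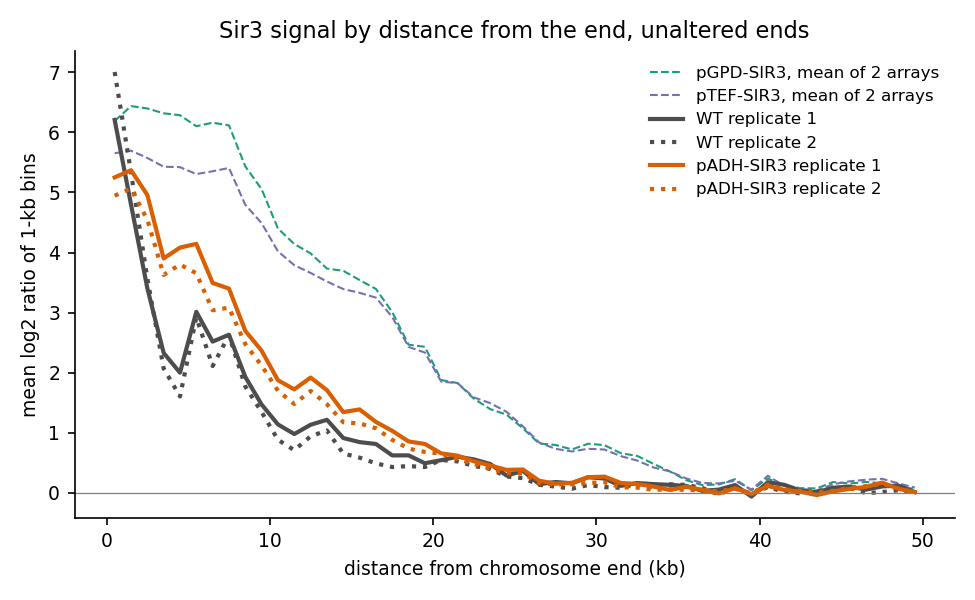
Mean log2 ratio of 1-kb bins over the unaltered ends (y axis) against distance from the end in kb (x axis; the number of ends with a measured bin varies along it), for each WT and pADH-SIR3 array and for the means of 2 arrays of pTEF-SIR3 and pGPD-SIR3. The pADH-SIR3 curves lie above the WT curves from about 2 to 20 kb and below the other promoter strains.

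Covered length counts, on each array, the bins within 50 kb of unaltered ends that exceed the level of internal bins by 3 scaled MADs of that array. This cut-off was a log2 signal of 0.81 and 0.81 in WT and 0.63 and 0.69 in pADH-SIR3, so weaker signal counted as covered in pADH-SIR3. Covered length was 215 and 143 kb in WT and 229 and 207 kb in pADH-SIR3, or 179 ± 50.9 kb against 218 ± 15.6 kb (SD, n = 2), of 1114 bins. The difference of 39 kb was about the size of the pooled SD of 37.6 kb, and it was 75 kb without WT replicate 1 and 3 kb without WT replicate 2. No test was made, since an exact two-sided permutation test of 2 against 2 arrays cannot go below p = 0.333. The pTEF-SIR3 arrays covered 421 and 371 kb and the pGPD-SIR3 arrays 424 and 402 kb. WT and pADH-SIR3 overlapped in total covered length.

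End by end, with these unlike cut-offs, both pADH-SIR3 arrays covered more than both WT arrays at 13 of 30 ends, less at 1, and overlapped with WT at 16. The largest gains without overlap were on chromosome 14 right, with 7 and 7 kb in WT and 12 and 13 kb in pADH-SIR3, on chromosome 5 right, with 8 and 5 against 12 and 10 kb, and on chromosome 6 left, with 7 and 4 against 10 and 8 kb. Chromosome 11 left was the end with less, at 15 and 9 kb in WT and 8 and 6 kb in pADH-SIR3. Some ends were hardly longer or not longer in pADH-SIR3 and much longer in pTEF-SIR3. On chromosome 12 left the WT arrays covered 5 and 5 kb, pADH-SIR3 7 and 6 kb and pTEF-SIR3 21 and 21 kb. Chromosome 7 right covered 3 and 3 kb, 5 and 4 kb, and 16 and 16 kb in the same order, and chromosome 2 right 7 and 1 kb, 2 and 1 kb, and 21 and 16 kb. At the right ends of chromosomes 8, 10 and 11 every array of WT and pADH-SIR3 covered 3 or 4 kb.

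**Figure D4:**
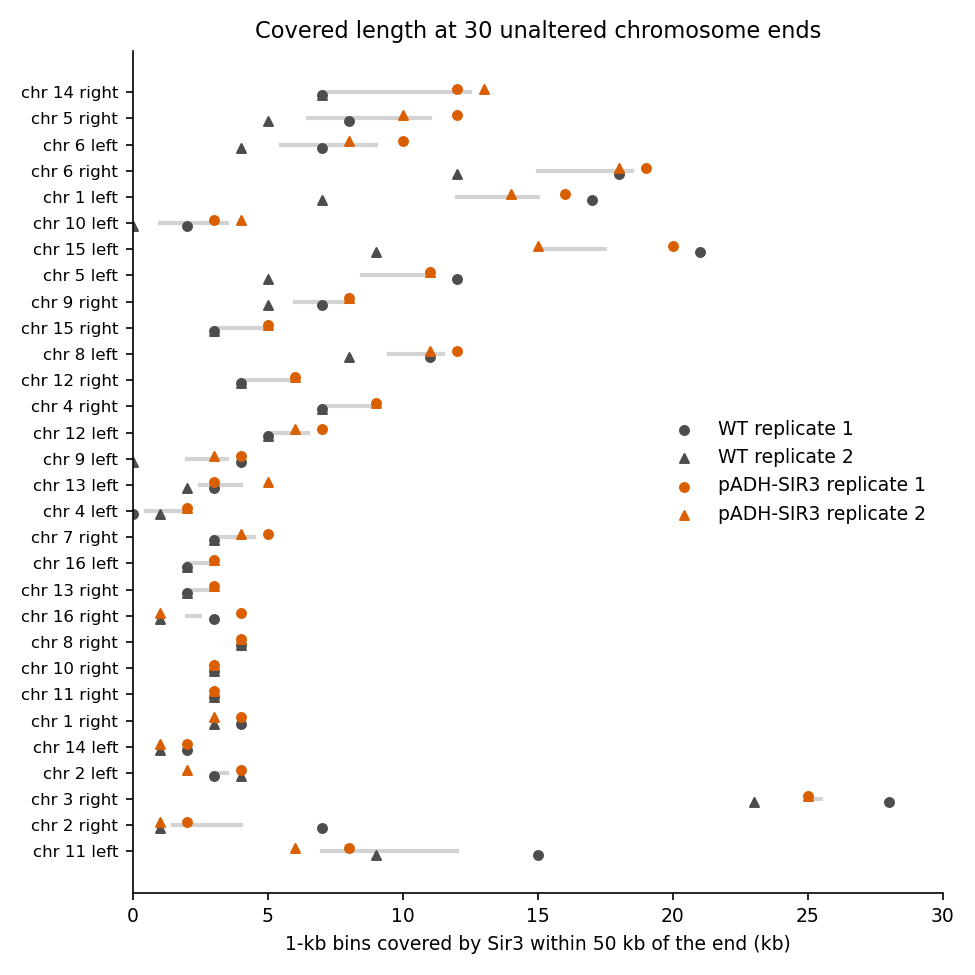
Covered length in kb within 50 kb of each of the 30 unaltered ends (x axis), 1 point per array, with a grey bar joining the means of both groups. The pADH-SIR3 points lie right of both WT points at 13 ends, most clearly on chromosomes 14 right and 5 right, and left of them on chromosome 11 left.

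At telomere-proximal peaks and at HMR the pADH-SIR3 arrays mostly read lower than WT on the log2 scale. Once each array was divided by its internal MAD, the median over these sites turned and the HMR calls were lost. These sites were taken as the 21 bins at 12 unaltered ends with a signal above 5 on the array of pGPD-SIR2, which has SIR2 rather than SIR3 under the GPD promoter. Their medians were 6.35 and 6.75 in WT and 5.35 and 5.02 in pADH-SIR3, and the median difference was −1.26. Both pADH-SIR3 arrays were below both WT arrays in 16 of the 21, a separation seen in 17.9% of all genes tested. Its share over all bins is not given here. Only 3 were called lower and 1 higher. The latter, on chromosome 6 right, read only 2.64 and 3.16 in WT, so not all of these sites were high in WT. In units of the internal MAD the medians were 17.4 and 17.2 in WT and 18.9 and 17.2 in pADH-SIR3, with a median difference of 1.09, 0 bins called lower and 2 called higher, so the direction turned with the scaling.

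The probes at HMR averaged 7.03 and 7.46 in WT and 4.75 and 4.16 in pADH-SIR3 (3 probes). HMRA1, the silent a1 gene of the cassette, read 6.94 and 7.52 in WT and 5.01 and 4.35 in pADH-SIR3, a difference of −2.55 (SE 0.56) that missed the threshold (adjusted p = 0.0536). The 2 bins there called lower, at a mean of 7.05 against 4.69, were still below WT in MAD units, by −4.48 and −0.18 MADs, but were not called (adjusted p = 0.423 and 0.975). Over all bins, 124 of the 139 higher calls and 23 of the 44 lower calls were made again in MAD units, so this scaling bore more on the lower calls. The 7 probes in the rDNA averaged 2.94 and 3.99 in WT, the first without 1 missing probe, and 2.85 and 2.55 in pADH-SIR3.

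Away from the ends the longest higher run lay over the acid phosphatase genes PHO5 and PHO3, which lie next to each other about 380 kb from the right end of chromosome 2. A run of 4 bins there went from 0.40 to 1.39. PHO5, the repressible acid phosphatase (positions 430031 to 430683), read 0.75 and 0.28 in WT and 1.71 and 1.70 in pADH-SIR3, a difference of 1.19 (SE 0.14, adjusted p = 0.000996). PHO3, the constitutive acid phosphatase (positions 428344 to 428992), read 0.78 and 1.01 in WT and 2.15 and 1.90 in pADH-SIR3, a difference of 1.13 (SE 0.13, adjusted p = 0.000993). The PHO5 call was lost within the first deposit alone (adjusted p = 0.0798). In pTEF-SIR3 the mean was 1.67 at PHO5 and 2.38 at PHO3, and in pGPD-SIR3 1.86 and 2.52. The PHO5 level of 1.71 in pADH-SIR3 was close to that in pTEF-SIR3, while at HXK1 pADH-SIR3 averaged 3.41 and pTEF-SIR3 4.83. That contrast of levels was not tested.

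The other 14 higher genes over 50 kb from every end moved by less than 1 except SPO19. SPO19, a meiosis-specific prospore protein gene on chromosome 16 (positions 304583 to 304909), read 0.74 and 0.47 in WT and 1.86 and 2.06 in pADH-SIR3, a difference of 1.36 (SE 0.13, adjusted p = 0.000153), and kept its call under each of 14 alternative settings. PFS1, needed for prospore formation, was higher by 0.91 and ARG8, an acetylornithine aminotransferase, by 0.73. CDA2, a chitin deacetylase of the spore wall, was higher by 0.69, ECM11, which acts in meiosis, by 0.63, and EFB1, a translation elongation factor, by 0.61. SPR2, SUT468, YOR062C, YOX1, SPO74, PRE1, PUT7 and YEA4 were higher by 0.37 to 0.60. These calls were less stable than that of SPO19: PFS1 kept its call in 12 of 14 alternative settings, CDA2 and YOR062C in 9 of 14, ECM11, EFB1 and SPR2 in 7 of 14, ARG8 and PRE1 in 5 of 14 and SUT468 in 4 of 14. In 11 of the 16 internal genes the pTEF-SIR3 mean was above the pADH-SIR3 mean, and that rise passed the limma threshold in 6. The shares of all genes are not given here, so these counts do not set the 16 genes apart from others. The group means of the 16 genes ran from −0.57 to 0.89 in WT and from −0.10 to 2.03 in pADH-SIR3. In most of them the signal thus stayed well under that of the telomeric blocks.

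A further 3 internal runs of bins were higher. On chromosome 4, 3 bins at 434 to 437 kb counted from the left went from 0.51 to 1.15, 2 bins with PFS1 and SSP1 on chromosome 8 from −0.12 to 0.58, and 2 bins with ATP16 on chromosome 4 from −0.57 to −0.06. The last of these remained below the typical probe of the array in the group means. The other 57 internal higher bins stood alone, with a median difference of 0.52.

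Of the 5 lower genes, 2 lay beside HML, which is deleted in yAT2627 and yAT2629. CHA1, a serine and threonine deaminase gene beside HML (positions 16071 to 16762 on chromosome 3), read 5.40 and 5.31 in WT and 0.75 and 0.56 in pADH-SIR3, a difference of −4.70 (SE 0.27, adjusted p = 2.17e-06). VAC17, a vacuole inheritance gene next to it (positions 17435 to 18345), read 1.81 and 1.86 in WT and 0.17 and 0.23 in pADH-SIR3, a difference of −1.64 (SE 0.15, adjusted p = 0.000153). The pTEF-SIR3 means were 2.37 at CHA1 and 0.49 at VAC17. With the GPD promoter on both sides, the strain with HML deleted (yAT2554, 1 array) differed from yAT1254 by −3.04 at CHA1 (adjusted p = 0.00319) and by −0.99 at VAC17 (adjusted p = 0.0727), in a comparison in which 0.0475% of the genes were called lower. These strains also differ in the alleles at RAP1, ADH4 and PPR1. In bins, 6 adjacent ones from 14 to 20 kb went from 3.79 to 0.48.

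The other 3 lower genes lay elsewhere. YFR018C on chromosome 6 (positions 183407 to 184062), 86.1 kb from the right end, was an isolated site of high signal in WT. It read 4.02 and 3.76 in WT and 2.82 and 2.97 in pADH-SIR3, a difference of −0.99 (SE 0.20, adjusted p = 0.0317), which shrank to −0.24 in MAD units (adjusted p = 0.927). BUD5, an exchange factor gene beside the mating-type locus MAT (positions 197850 to 198689), read 0.58 and 0.90 in WT and 0.10 and 0.07 in pADH-SIR3, a difference of −0.66 (SE 0.11, adjusted p = 0.0125). BIO3, a gene of biotin synthesis (positions 734580 to 735477), read 0.48 and 0.25 in WT and −0.30 and −0.08 in pADH-SIR3, a difference of −0.56 (SE 0.11, adjusted p = 0.0317). These 3 calls were lost in 7 to 9 of 15 alternative settings each. A lower run of bins away from ends, 2 bins at MET5 and IML1 on chromosome 10, went from 2.59 to 1.95.

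Groups of genes are described by counts alone. Their counts stand beside 0.807% higher of all genes and 4.81% higher of those within 50 kb of an unaltered end. Of 7 measured genes between HMR and the right end of chromosome 3, 6 were higher, and OCA4 on the other side of HMR was not. All 3 measured genes of the list for the right end of chromosome 6 were higher. RPO41, also on that list, lies on the left arm, 60.9 kb from its end, and differed by −0.22. Of 10 genes of sulfur compound uptake and use, all near ends, 2 were higher (BDS1 and SEO1), with a median of 0.04. Of 8 measured genes of the phosphate regulon 2 were higher, PHO5 and PHO3, with a median of 0.03. Those 2 genes are neighbours and share a block, so they are not independent of each other. Of 12 highly transcribed genes 1 was higher (EFB1), with a median of 0.32. Of 4 measured genes bordering HML and MAT, 3 were lower (CHA1, VAC17 and BUD5), with a median of −1.15. HMRA1 was the one measured gene of the mating-type cassettes.

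In the remaining lists no gene passed in either direction. All 3 measured aryl-alcohol dehydrogenase genes had both pADH-SIR3 arrays above both WT arrays, as did 20.1% of all genes and 20.9% of those within 50 kb of an unaltered end, AAD3 at a difference of 1.87, AAD6 at 1.28 (adjusted p = 0.142) and AAD4 at 0.72. The 13 measured genes of SIR and telomere anchoring factors had a median of 0.00, 12 genes of iron uptake −0.07, 8 of sugar transport and hydrolysis −0.02, 5 flocculins −0.04, 3 of the COS family −0.03 and 8 internal control genes −0.05. Of these, ARN2, an iron siderophore transporter, differed by 0.90 (adjusted p = 0.323) and IMA1, an isomaltase, by 0.86 (adjusted p = 0.169). Medians were 0.16 over 4 DAN and TIR mannoprotein genes and 0.16 over 4 vitamin B1 and B6 genes, and the 1 measured member of the HSP31 family differed by −0.03. Many telomeric families share sequence between members, and cross-hybridisation between such copies was not tested.

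The strain alleles other than the promoter can be set apart only through the GPD promoter, since the strain yAT2554 (1 array) carries pGPD-SIR3 with the other alleles of yAT2627 and yAT1254 carries it with those of WT. That pair differed at 3 genes in all: 2 of 4214 lower (0.0475%) and 1 higher (0.0237%). CHA1 differed by −3.04 (adjusted p = 0.00319) and SIR3 by −1.28 (adjusted p = 0.0416). The higher gene was GTT1, a glutathione transferase, which did not differ past the threshold between pADH-SIR3 and WT (adjusted p = 0.848). At the 18 higher genes near ends the difference between these backgrounds had a median of −0.82, it was above 0 only at BMH1 (0.59), and none passed the threshold. These differences rest on the 1 array of yAT2554, whose highest signal was 6.62 against 7.65 and 7.30 on the arrays of yAT1254. At the 16 internal higher genes the median was 0.06, with 10 above 0 and none past the threshold. At PHO5 it was −0.36 and at YFR018C −1.21, the latter in the same direction as the comparison. Whether the alleles act alike without the GPD promoter was not tested.

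**Figure D5:**
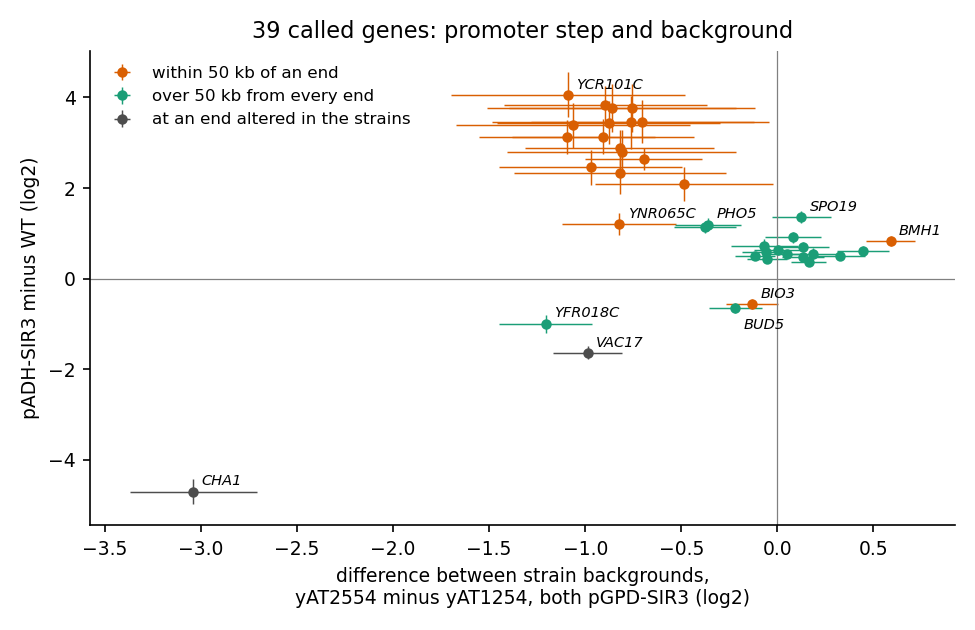
Difference of pADH-SIR3 minus WT (y axis, log2) against the difference between strain backgrounds with the GPD promoter, yAT2554 minus yAT1254 (x axis, log2), for the 39 called genes, with bars of 1 SE from the limma fit. All higher genes near ends but BMH1 lie left of 0 on the x axis, and CHA1 and VAC17 are below 0 on both.

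Side by side across promoters, the 18 higher genes near ends had a median signal of 1.31 in WT, 4.54 in pADH-SIR3, 5.59 in pTEF-SIR3 and 6.32 in pGPD-SIR3. The last has the other alleles of WT, so its step from pTEF-SIR3 cannot be told apart from those alleles. On the 1 array of yAT2554, pGPD-SIR3 with the alleles of pTEF-SIR3, YCR101C read 5.22 and SEO1 5.06, below their pTEF-SIR3 means. YFR054C read 5.80 and ADH7 6.02 there, above their pTEF-SIR3 means of 5.70 and 5.93. The pTEF-SIR3 mean was above the pADH-SIR3 mean in 18 of 18, and in 10 both pTEF-SIR3 arrays were above both pADH-SIR3 arrays. The share of all genes with that separation is not given here. In the limma fit the rise from pADH-SIR3 to pTEF-SIR3 passed an adjusted p of 0.05 in only 2 of the 18. YCR101C averaged 5.21 in pADH-SIR3 and 5.45 in pTEF-SIR3, within the spread of either group. SEO1 averaged 3.45 against 5.32, YIR042C 3.85 against 5.49 and BMH1 0.63 against 0.95. WT replicate 1 was above WT replicate 2 in 16 of these 18 genes. The gap between the WT replicates had a median of 0.77 over the 18 and was 1.38 at the highest, in YCR101C. The differences between pADH-SIR3 and WT in these genes ran from 0.83 to 4.06.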

How the data were processed

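Per the labels' protocols, precipitated DNA (Cy5) and whole cell extract DNA (Cy3) were amplified, labelled and hybridised to two-colour tiling arrays. The authors deposited for each probe a ratio of both channels, a rescaled ratio in which missing probes are filled, and a score. The sources used here do not name the scanner, the background correction, the spot filter or the genome build. The unfilled deposited ratio was taken to log2 and each array's median over chromosomal probes was subtracted, with no loess or quantile step. Ratios at or below 0 (0 to 7 per array) were set to missing.

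Genes were placed by R64 positions from RefSeq, used for names and neighbours only. Probes at least 100 bp inside a gene (450 bp on the upper side on chromosomes 10 and 11) were averaged. Genes and 1-kb bins needed at least 2 probes with a value on each of the 19 arrays, which left 4214 genes with a median of 4 probes and 11002 bins with a median of 3. limma 3.58.1 in R 4.3.3 fitted 1 mean per group in 11 groups (8 residual and 4.28 prior degrees of freedom for genes), with Benjamini-Hochberg adjustment at 0.05 over all genes or bins. The fit was tested on simulated data. Figures were drawn with Python 3.11.15 and matplotlib 3.10.9. The number of arrays limits the precision.

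Per-array values are given for the 12 largest rises (at most 3 per chromosome arm) and the 5 largest falls past the threshold without overlap, and for fixed loci. The comparison, lists and named genes were chosen with earlier results of these data known. Alternatives were the rescaled ratio, MAD scaling, other centring, the 4 arrays alone, deposit, slide and replicate blocks, other probe filters, robust moderation and leaving out each array. Replicate numbers did not pair the groups (correlation of deviations across genes −0.08 between WT and pADH-SIR3). Promoter sequences were not used here.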

Additional observations from a re-analysis of the deposited data

How the results depend on the processing

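Of 4214 genes, 34 were higher and 5 lower. With the 4 arrays of both groups only, 16 genes were higher and 3 lower, and 87 bins higher. With at least 4 probes a gene, which leaves 2523 genes, 7 were higher. The rescaled ratio with missing probes filled gave 9 lower genes. The first deposit only, with 1 pADH-SIR3 array assumed to vary like the other groups, gave 3 lower genes, 91 higher bins and 20 lower bins, and with slide as a random block 3, 91 and 19. Leaving out 1 array at a time gave 20 to 209 higher and 3 to 87 lower genes, 60 to 443 higher and 14 to 331 lower bins, and a covered length difference of 3 to 75 kb. The highest of these came without WT replicate 1, a fit whose 209 higher genes held 34 of the 34, and the cause was not tested. Covered length differences were 21.5 kb at 2 MADs and 57 kb at 5 MADs. With the replicate block 31 genes were higher and 7 lower, and 127 bins higher and 42 lower. In each alternative that tested them (14 for genes with under 4 probes, otherwise 15), 10 of the 34 higher and 2 of the 5 lower genes (CHA1 and VAC17) kept their call. For the 19 called genes with per-array values, 236 of 274 values kept direction and side of the threshold, 38 lost the call and 0 turned. The SIR2 difference turned to 0.0122 with probes anywhere inside the gene and ran from −0.0992 to 0.0696 with 1 array left out. That of RAP1 turned to 0.0194 in MAD units and ran from −0.0998 to 0.0410. The median background difference of −0.82 was −3.58 in MAD units. Each array was there divided by its own MAD, 0.340 for yAT2554 and 0.308 and 0.335 for yAT1254, so this is not only a change of unit. The alternatives of this difference were added after seeing the data. The number of arrays limits what can be detected: 615 genes and 1700 bins had an unadjusted p under 0.05.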

Other observations

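A set of genes known for sporulation came up among the internal rises and was looked at after these values were seen, so it has no test. Of 25 measured genes with symbols starting in SPO, SPR or SPS, 3 were higher in pADH-SIR3 (SPO19, SPR2 and SPO74) and 0 lower, with a median difference of 0.18. In 11 of the 25 (44.0%) both pADH-SIR3 arrays were above both WT arrays, against 20.1% of all genes tested. Single bins at other meiotic genes were also higher, with a difference of 0.76 at SPO75 and 0.71 at MSH4, which were likewise picked after their values were seen.

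A single bin in VEL1, on the altered left end of chromosome 7, read 0.48 and 0.04 in WT and 3.15 and 3.04 in pADH-SIR3, in a stretch where most WT probes had no ratio. A bin in SIR3 itself read 0.15 and −0.21 in WT and 0.98 and 0.94 in pADH-SIR3, a difference of 0.99, although the gene as a whole did not pass the test. Both were picked after their values were seen.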
